A study of Mus musculus with 6 samples.

Results

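The proteasome subunit genes were described across 6 RNA sequencing libraries of 4T1, a cell line from a mouse mammary carcinoma. Members were all gene symbols that begin with Psm, followed by a letter from a to g and a digit, and that averaged 1 FPKM or more across all 6. FPKM is the number of fragments per length of transcript and per mapped fragments of a library. The rule matched 50 of 24346 symbols, and 47 of them passed, among 11079 genes that passed in all. WT cells had been mock transfected. The cells named shRNA1 and shRNA3 each carried a different short hairpin RNA against the long noncoding RNA AU021063, and each of the 3 groups had 2 libraries. No non-targeting hairpin is named in the labels, and they do not say how the hairpins were delivered or whether a hairpin line was 1 clone. Nothing states that the paired libraries of a group were grown as separate cultures. The p-values therefore describe the spread among these libraries alone, and that spread may be technical. The targeted RNA itself, AU021063, had 1.82 and 1.67 FPKM in the WT libraries. The shRNA1 libraries had 1.05 and 0.572 FPKM of it, and the shRNA3 libraries 0.785 and 0 FPKM.

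The proteasome degrades proteins that carry ubiquitin chains. Its barrel-shaped core particle has outer rings of alpha subunits and inner rings of beta subunits, and only Psmb5, Psmb6 and Psmb7 cut peptide bonds in the constitutive form. The regulatory particle binds the ends of the core, where a ring of ATPases unfolds the substrate and non-ATPase subunits recognise and remove ubiquitin. Under interferon and in many immune cells, Psmb8 replaces Psmb5, Psmb9 replaces Psmb6 and Psmb10 replaces Psmb7. The resulting immunoproteasome, with the Psme1 and Psme2 cap, shapes the peptides that MHC class I presents.

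Sequences upstream of the RefSeq starts of the 3 inducible subunits are shown first, because these genes carried different responses. They come from RefSeq on GRCm38.p6, read on the strand of the gene. The stretch of Psmb8 is the 250 bases before its start, chr17:34197945-34198194 on the plus strand. That of Psmb10 is the 250 bases before its start, chr8:105938393-105938642 on the minus strand. For Psmb9 the 225 bases between its start and that of the divergent gene Tap1 are shown, chr17:34187331-34187555 on the minus strand. Capitals mark a match to TTCNNNGAA, the core of the gamma-activated site bound by STAT factors. It is the same on both strands.
Psmb8: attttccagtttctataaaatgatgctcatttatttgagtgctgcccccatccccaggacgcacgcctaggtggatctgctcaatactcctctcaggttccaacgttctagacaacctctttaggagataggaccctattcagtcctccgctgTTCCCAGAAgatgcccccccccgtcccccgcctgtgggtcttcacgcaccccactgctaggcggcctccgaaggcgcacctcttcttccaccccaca
Psmb9 to Tap1: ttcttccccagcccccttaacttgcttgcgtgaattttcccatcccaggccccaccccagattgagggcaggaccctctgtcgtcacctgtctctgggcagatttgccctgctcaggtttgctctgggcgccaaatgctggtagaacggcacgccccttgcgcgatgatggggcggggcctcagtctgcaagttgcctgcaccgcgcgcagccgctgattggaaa
Psmb10: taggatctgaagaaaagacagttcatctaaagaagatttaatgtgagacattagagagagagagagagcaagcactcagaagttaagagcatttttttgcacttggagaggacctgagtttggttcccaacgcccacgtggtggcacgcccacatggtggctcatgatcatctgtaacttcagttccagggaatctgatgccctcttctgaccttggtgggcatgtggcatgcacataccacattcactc
The longest GENCODE gene models start farther upstream than these RefSeq starts, so the stretches of Psmb8 and Psmb9 lie inside those models and that of Psmb10 overlaps one. The match in Psmb8 began 97 bases before the start, and no such match was found in the other stretches. The 3 stretches held 10, 12 and 3 CpG pairs in the order shown.

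Over windows from 250 bases before to 50 bases after the start, with both strands searched, 40 of the 47 members had a RefSeq promoter. Psmb1, Psmb2, Psmb7, Psmc3, Psmd3, Psmd7 and Psmg2 had no entry and were not searched. TTCNNNGAA was found in 3 of them (7.5%), Psmb8, Psmd2 and Psmg1, against 9.55% of all 27025 genes with a promoter in the table. GAAANNGAA, a core of the interferon-stimulated response element, was found in 7 (17.5%), against 9.76% of all genes. Those 7 were Psmb3, Psmb4, Psmc2, Psmd4, Psmd9, Psme1 and Psmg4, so none of the inducible beta subunits was among them. TGACNNNGC, the core of the antioxidant response element that Nfe2l1 and Nfe2l2 bind, was found in 6 (15%), against 14.0% of all genes. Psmb5 and Psmb6 were among them. These are letter matches, which do not show binding.

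The libraries were alike in size: values summed to between 560862 and 604022 FPKM, and relative depth was 86.8% to 105% of that of WT replicate 1. Genes averaging 10 FPKM or more differed between the libraries of a group by a median of 4.47% in WT, 4.40% with shRNA1 and 4.32% with shRNA3. The epithelial keratins Krt8 and Krt18 were at 263 to 481 FPKM and 457 to 587 FPKM, while the basal keratins Krt14 and Krt5 were below 1 FPKM in every library. Epcam and Cdh1, surface proteins of epithelial cells, were low, at 2.04 to 5.14 FPKM and 1.22 to 1.83 FPKM. Pdgfra and Pdgfrb, from a list of 6 fibroblast and endothelium markers, were higher, at 37.9 to 49.96 FPKM and 17.9 to 21.8 FPKM. On that list 3 genes were below 1 FPKM in every library. Of 16 leukocyte markers, whose cells make inducible subunits without a stimulus, 15 were below 1 FPKM in every library. Ptprc, Cd3e, Cd3g, Cd4, Itgam and Nkg7 were at 0 in all 6.

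The members were abundant. Their mean levels ran from 10.5 FPKM for Psmf1 to 298 FPKM for Psma7, with a median of 87.1 FPKM, and together they made up 0.771% and 0.766% of the summed FPKM of the WT libraries. The share was 0.718% and 0.733% with shRNA1 and 0.662% and 0.660% with shRNA3. Symbols that matched but stayed below the filter were Psma8, the testis core subunit, at 0 in every library, and Psmb11, the thymus core subunit, at no more than 0.017 FPKM. Psme2b, a near-identical copy of Psme2, reached no more than 0.146 FPKM. Psmc3ip matched by its symbol and is a binding partner of Psmc3 rather than a subunit.

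More members fell than rose in each comparison, and the fall was broader with shRNA3. Differences were tested with limma on log2(FPKM + 1) over all 11079 genes, and a gene was called at an adjusted p under 0.05. With shRNA1, 4 members rose and 12 fell, that is 8.51% and 25.5% of the 47, where 17.6% of all genes were called higher and 18.4% lower. With shRNA3, 5 rose and 28 fell, that is 10.6% and 59.6%, where 27.4% of all genes were called higher and 27.8% lower. The median log2 change of the members was -0.08 with shRNA1 and -0.18 with shRNA3, and that of all genes was -0.01 in both. Without Psmc3ip the counts with shRNA3 were 5 and 27 of 46. The comparisons share the WT libraries, so their counts are not independent of each other. The count of 12 was less stable than that of 28. It was 6 without WT replicate 1, 7 without WT replicate 2 and 6 without either shRNA1 library, and the count of 5 was 3 without WT replicate 1 or shRNA3 replicate 2. Those fits had fewer libraries, and the share of all genes called in each is not given here. The smaller counts are therefore not shown to be particular to the members. A lower FPKM of a gene can come from fewer cells that use it or from less of its RNA per cell. These cannot be told apart in bulk libraries.

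In the mean of both hairpins against WT, 4 members were called higher and 23 lower, where 24.1% of all genes were called higher and 25.9% lower. The group means fell from WT to shRNA1 to shRNA3 in 21 members (44.7%), against 24.95% of all genes, and rose in that order in 5 (10.6%), against 23.1%. In a fit that joined the 4 knockdown libraries into 1 group, so that the difference between hairpins counted as spread, only Psmf1, Psmd7 and Psmb10 were called lower and Psmb8, Psmd8 and Psmb9 higher. In that fit 6.45% of all genes were called lower and 7.20% higher. Rescaling every library to the same FPKM total gave 4 higher and 17 lower members with shRNA1 and 3 and 31 with shRNA3. It moved the share of higher genes among all called genes from 49.0% to 34.9% with shRNA1. With shRNA3 that share went from 49.7% to 37.6%, and over both hairpins from 48.2% to 34.3%. The share of all genes called after rescaling is not given here.

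**Figure D1:**
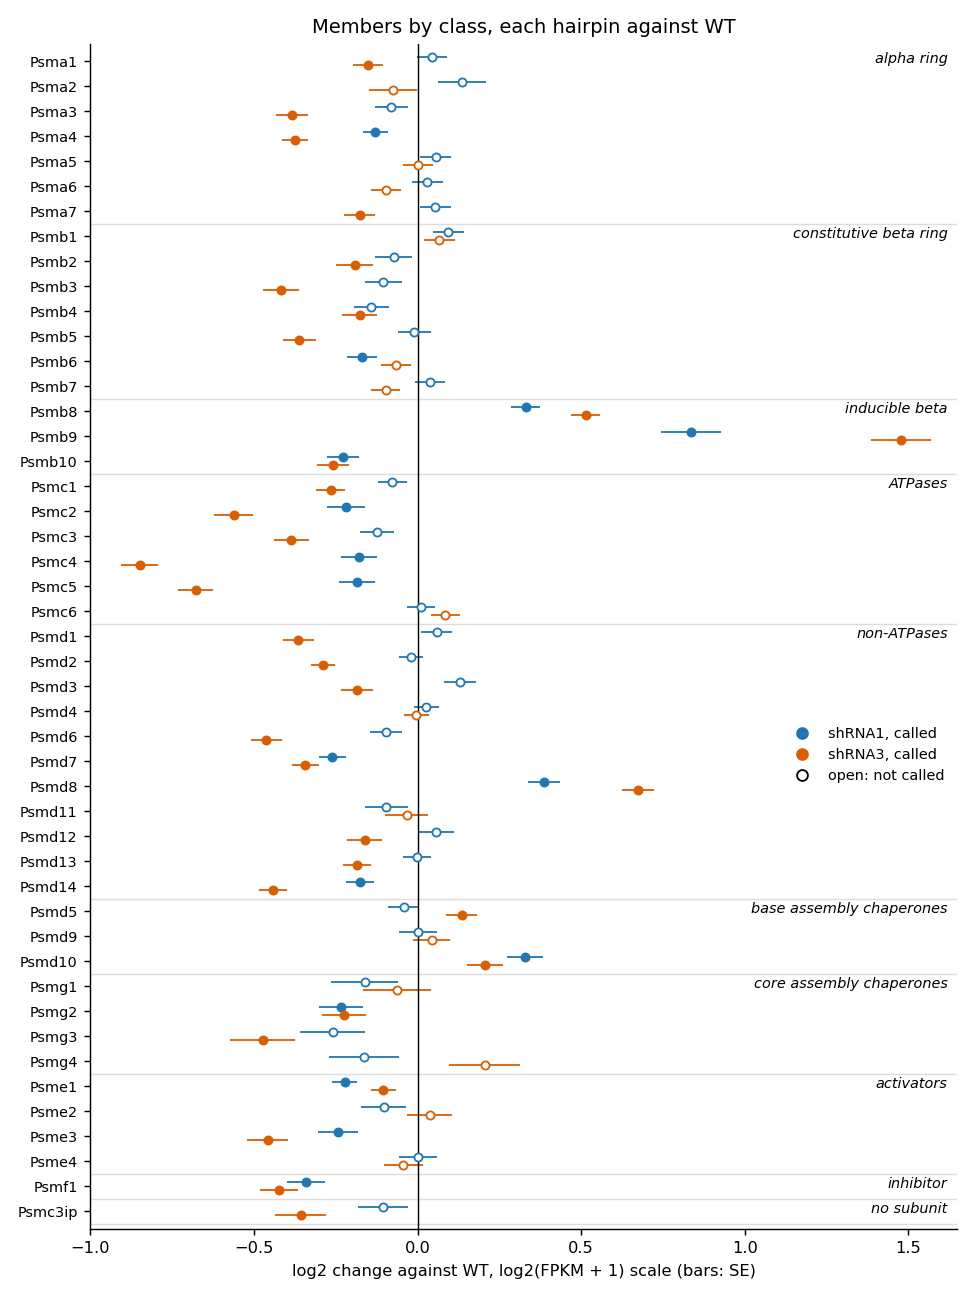
Log2 change of the 47 members against WT on the log2(FPKM + 1) scale (x axis) by gene and class (y axis), for shRNA1 (blue) and shRNA3 (orange). Filled points passed an adjusted p under 0.05, open points did not, and bars are standard errors; most shRNA3 points of the ATPases lie left of 0, and Psmb9, Psmd8 and Psmb8 lie farthest to the right.

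Among the inducible catalytic subunits, Psmb9 and Psmb8 rose with each hairpin and Psmb10 fell with each. Psmb9, the counterpart of Psmb6, was at 6.08 and 7.61 FPKM in WT, 12.8 and 13.1 FPKM with shRNA1, and 20.1 and 21.4 FPKM with shRNA3. The 3 groups did not overlap. The rise was 0.84 ± 0.09 (SE, log2 scale) with shRNA1, a 1.89-fold higher mean FPKM (limma adjusted p = 0.000378). It was 1.48 ± 0.09 with shRNA3, a 3.03-fold higher mean (limma adjusted p = 1.29e-05). Over both hairpins it was 1.16 ± 0.08 (limma adjusted p = 2.51e-05). The difference between the hairpins was 0.64 ± 0.09 (limma adjusted p = 0.00123). No other member rose by more.

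Psmb8, the counterpart of Psmb5, was at 72.9 and 75.7 FPKM in WT, 92.6 and 94.8 FPKM with shRNA1, and 109 and 104 FPKM with shRNA3. It was the most abundant of the inducible subunits in every library, and its groups were also apart. Its log2 change was 0.33 ± 0.04 (SE) with shRNA1, a 1.26-fold higher mean (limma adjusted p = 0.000979). With shRNA3 it was 0.51 ± 0.04, a 1.43-fold higher mean (limma adjusted p = 5.49e-05), and over both hairpins 0.42 ± 0.04 (limma adjusted p = 8.89e-05). The hairpins differed by 0.18 ± 0.04 (limma adjusted p = 0.0113), a call that was lost without shRNA1 replicate 1 (0.0620) or shRNA3 replicate 1 (0.0691).

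Psmb10, the counterpart of Psmb7, was at 22.7 and 23.1 FPKM in WT, 19.3 and 19.4 FPKM with shRNA1, and 19.2 and 18.8 FPKM with shRNA3. All 4 knockdown libraries were below both WT libraries. The log2 change was -0.23 ± 0.05 (SE) with shRNA1 (limma adjusted p = 0.00867) and -0.26 ± 0.05 with shRNA3 (limma adjusted p = 0.00276), and -0.24 ± 0.04 over both (limma adjusted p = 0.00220). The hairpins differed by -0.03 ± 0.05, which did not pass (limma adjusted p = 0.666).

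The constitutive catalytic subunits each behaved differently. Psmb5, which cuts after hydrophobic residues, was at 122 and 130 FPKM in WT, 126 and 123 FPKM with shRNA1, and 94.6 and 101 FPKM with shRNA3. Only the shRNA3 libraries lay below WT, by 0.36 ± 0.05 (SE) on the log2 scale (limma adjusted p = 0.000625). The change with shRNA1 was -0.01 ± 0.05 (limma adjusted p = 0.894), and that over both hairpins was -0.19 ± 0.04 (limma adjusted p = 0.00912, but 0.0815 without WT replicate 2). Psmb6, which cuts after acidic residues, was at 114 and 122 FPKM in WT, 105 and 104 FPKM with shRNA1, and 115 and 110 FPKM with shRNA3. Its log2 change of -0.17 ± 0.05 with shRNA1 passed (limma adjusted p = 0.0216) and that of -0.07 ± 0.05 with shRNA3 did not (limma adjusted p = 0.243). Psmb7, which cuts after basic residues, was at 158 and 152 FPKM in WT, 157 and 161 FPKM with shRNA1, and 148 and 140 FPKM with shRNA3. It was not called against WT in either group, with changes of 0.04 ± 0.04 and -0.10 ± 0.04, while shRNA3 was below shRNA1 by 0.14 ± 0.04 (limma adjusted p = 0.0416).

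**Figure D2:**
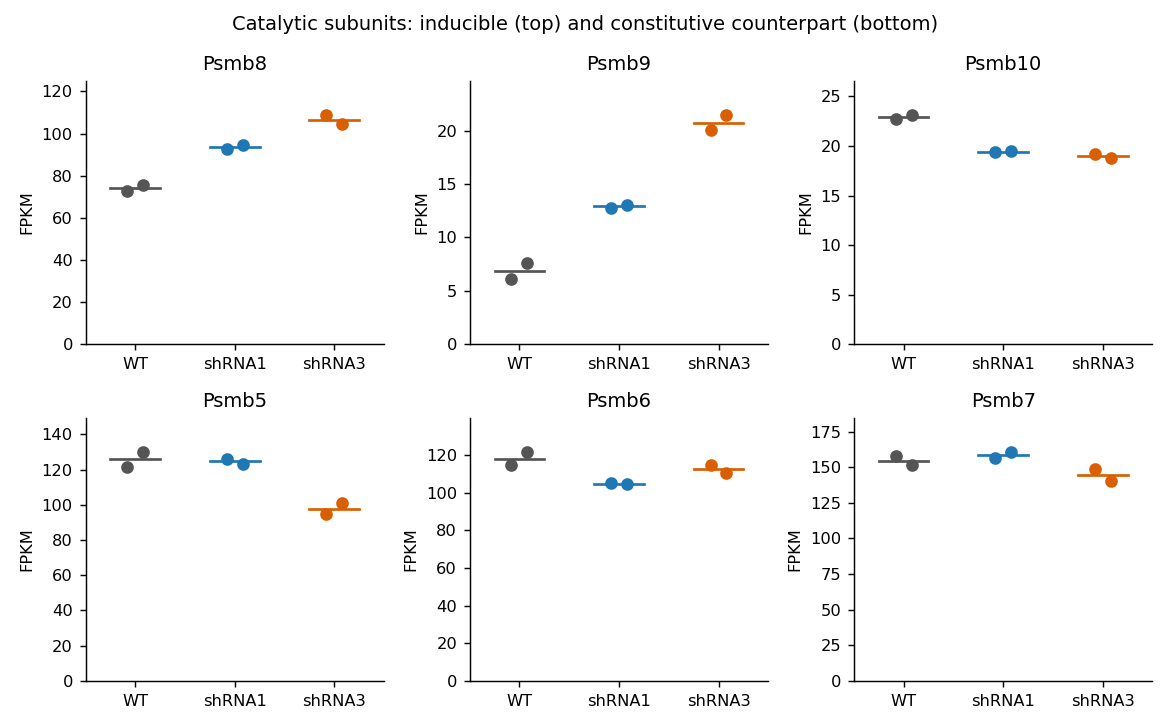
FPKM (y axis, from 0) of the inducible catalytic subunits (top) and the constitutive subunit each replaces (bottom) in WT, shRNA1 and shRNA3 (x axis). Points are libraries and bars are means of 2; Psmb8 and Psmb9 rise from WT to shRNA3, Psmb10 is lower in both knockdown groups, and Psmb5 is lower with shRNA3.

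The inducible share of a pair, the FPKM of the inducible subunit over that of both, does not depend on the scaling of a library. Psmb8 made up 37.5% and 36.8% of its pair with Psmb5 in WT, 42.3% and 43.5% in the shRNA1 libraries and 53.5% and 50.9% in the shRNA3 libraries. It was thus the larger part of the pair only in the shRNA3 libraries. Psmb9 made up 5.05% and 5.89% of its pair with Psmb6 in WT, 10.9% and 11.1% in the shRNA1 libraries and 14.9% and 16.3% in the shRNA3 libraries, and remained the smaller part throughout. Psmb10 made up 12.6% and 13.2% of its pair with Psmb7 in WT, 10.98% and 10.8% in the shRNA1 libraries and 11.4% and 11.8% in the shRNA3 libraries.

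The log2 ratio of Psmb8 to Psmb5 was higher by 0.34 with shRNA1 and 0.88 with shRNA3. That of Psmb9 to Psmb6 was higher by 1.10 and 1.68, and that of Psmb10 to Psmb7 changed by -0.28 and -0.17. Groups did not overlap in any of these. A two-sided exact permutation test of 2 against 2 libraries cannot give less than the p of 0.333 found for each. Over all 4 knockdown libraries against WT the exact permutation p was 0.133 for Psmb8 and 0.0667 for each of the other pairs, where 0.0667 is the smallest the design allows. All 12 comparisons had a Benjamini-Hochberg adjusted exact p of 0.333.

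**Figure D3:**
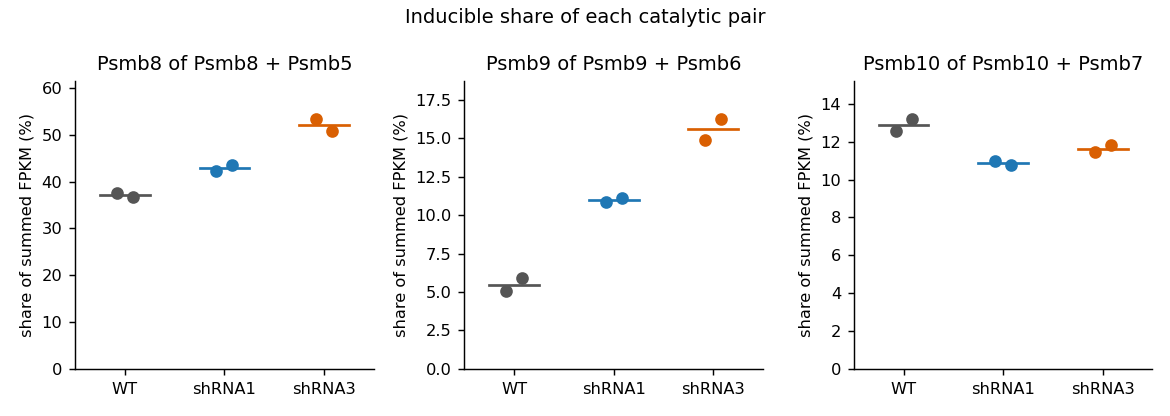
Share of the summed FPKM of each catalytic pair that came from the inducible subunit, in percent (y axis, from 0), in WT, shRNA1 and shRNA3 (x axis). Points are libraries and bars are means of 2; the shares of Psmb8 and Psmb9 rise from WT to shRNA3, while that of Psmb10 is highest in WT.

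Psmb9 and Psmb8 lie in the MHC region of chromosome 17, next to the genes for the peptide transporter. On GRCm38, in GENCODE coordinates, Psmb9 is at chr17:34181987-34187764 (minus strand), Tap1 at chr17:34187553-34197225 (plus), Psmb8 at chr17:34197721-34201454 (plus) and Tap2 at chr17:34203527-34216321 (plus). Psmb10 is at chr8:105935735-105938444 (minus), away from this region. The first exons of Psmb9 and Tap1 overlap on opposite strands, and no source used here says whether the counting used strand. Reads in the overlap therefore cannot be assigned to either gene. Their RefSeq starts are 226 bases apart and their promoter windows share 275 bases.

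Tap1, which carries peptides into the endoplasmic reticulum, was at 15.3 and 16.4 FPKM in WT, 17.3 and 16.4 FPKM with shRNA1, and 26.4 and 27.3 FPKM with shRNA3. Its partner Tap2 was at 26.4 and 28.9 FPKM in WT, 30.1 and 28.1 FPKM with shRNA1, and 36.2 and 36.3 FPKM with shRNA3. The shRNA3 libraries stood above all others for both genes. With shRNA3 Tap1 rose by 0.73 ± 0.06 (SE, log2; limma adjusted p = 4.2e-05) and Tap2 by 0.38 (limma adjusted p = 0.00104). With shRNA1 the changes were 0.08 ± 0.06 (limma adjusted p = 0.305) and 0.07 (limma adjusted p = 0.363). Psmb9 and Psmb8 were called higher with shRNA1 and the transporter genes between and beside them were not. Whether the changes of neighbours differ from each other was not tested.

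**Figure D4:**
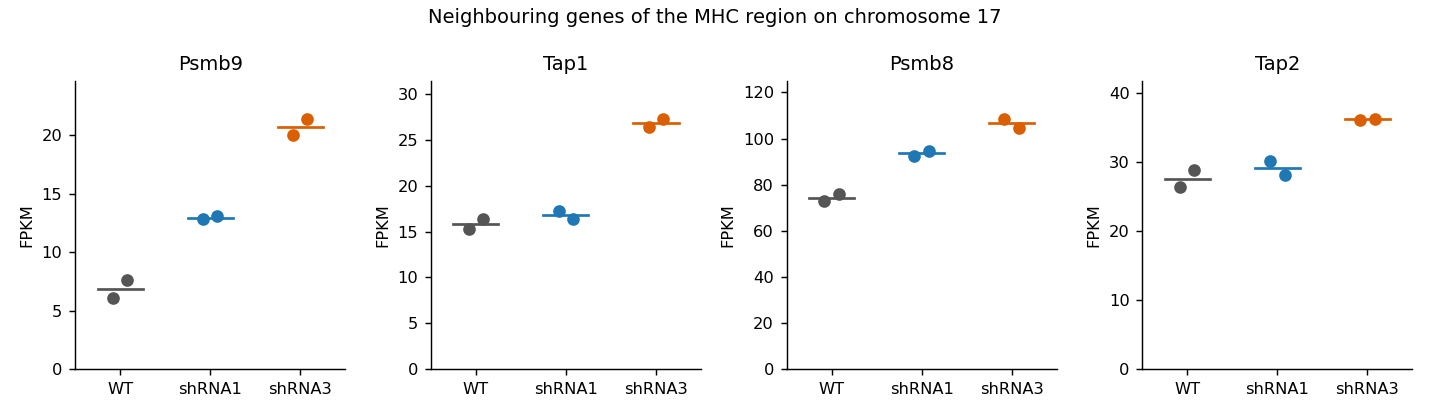
FPKM (y axis, from 0) of Psmb9, Tap1, Psmb8 and Tap2, in their order along chromosome 17, in WT, shRNA1 and shRNA3 (x axis). Points are libraries and bars are means of 2; all 4 genes are highest with shRNA3, and with shRNA1 only Psmb9 and Psmb8 lie clear of WT.

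In the alpha ring, whose subunits form the gate of the core, 0 of 7 genes rose with either hairpin. With shRNA1 1 fell, Psma4, and with shRNA3 4 fell, Psma1, Psma3, Psma4 and Psma7. The class counts here and below stand beside the shares of all genes. Those were 17.6% called higher and 18.4% lower with shRNA1, and 27.4% and 27.8% with shRNA3. A fall of 1 gene in 7 with shRNA1 is no more than that share. Psma7 was the most abundant member of all, at 308 and 304 FPKM in WT, 322 and 314 FPKM with shRNA1, and 282 and 260 FPKM with shRNA3. The shRNA1 libraries were the highest and the shRNA3 libraries the lowest, and the change with shRNA3 was -0.18 ± 0.05 (limma adjusted p = 0.0141). Psma4, the least abundant alpha subunit, was at 104 and 102 FPKM in WT, 94.3 and 93.5 FPKM with shRNA1, and 79.6 and 78.4 FPKM with shRNA3. Its log2 change was -0.13 ± 0.04 with shRNA1 (limma adjusted p = 0.0350) and -0.38 ± 0.04 with shRNA3 (limma adjusted p = 0.000151).

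In the constitutive beta ring 0 of 7 genes rose, 1 fell with shRNA1, Psmb6, and 4 fell with shRNA3, Psmb2, Psmb3, Psmb4 and Psmb5. Psmb3, a structural subunit, fell by 0.42 ± 0.06 with shRNA3 (limma adjusted p = 0.000482), from 159 and 167 FPKM to 127 and 116 FPKM, with 148 and 155 FPKM with shRNA1. Psmb1, the most abundant beta subunit, was at 193 and 193 FPKM in WT, 202 and 210 FPKM with shRNA1, and 210 and 195 FPKM with shRNA3, and was called in no comparison. The summed FPKM of the 14 constitutive core genes was 99.5% of that of WT with shRNA1 and 89.3% with shRNA3. Their median log2 change with shRNA1 was 0.01, but -0.05 with libraries rescaled to the same total and -0.06 after quantile normalization, so it has no settled sign. With shRNA3 it was -0.16 and lower still under both. The 14 subunits occur in equal numbers in the constitutive core, while the levels of their genes spread 3.25-fold within the alpha ring and 1.79-fold within the beta ring.

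The ATPase ring of the regulatory particle showed the largest falls with shRNA3. Of its 6 genes, 3 fell with shRNA1, Psmc2, Psmc4 and Psmc5, and 5 fell with shRNA3, all but Psmc6. Psmc4 was at 71.1 and 72.6 FPKM in WT, 63.9 and 62.7 FPKM with shRNA1, and 37.4 and 41.5 FPKM with shRNA3. Its groups did not overlap. Its log2 change was -0.18 ± 0.06 (SE) with shRNA1, a 1.14-fold lower mean (limma adjusted p = 0.0367), and -0.85 ± 0.06 with shRNA3, a 1.82-fold lower mean (limma adjusted p = 1.57e-05). The hairpins differed by -0.67 ± 0.06 (limma adjusted p = 0.000105).

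Psmc5 was at 66.8 and 63.8 FPKM in WT, 57.6 and 57.0 FPKM with shRNA1, and 38.6 and 42.3 FPKM with shRNA3. It changed by -0.19 ± 0.05 with shRNA1 (limma adjusted p = 0.0313) and by -0.68 ± 0.05 with shRNA3 (limma adjusted p = 4.21e-05). Psmc2 was at 90.2 and 79.9 FPKM in WT, 73.3 and 72.2 FPKM with shRNA1, and 57.5 and 56.9 FPKM with shRNA3. It changed by -0.22 ± 0.06 (limma adjusted p = 0.0217) and by -0.56 ± 0.06 (limma adjusted p = 0.000151). In both genes the order was WT, shRNA1, shRNA3 with no overlap.

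Psmc6 stood apart from the other ATPases. It was at 115 and 109 FPKM in WT, 111 and 114 FPKM with shRNA1, and 119 and 119 FPKM with shRNA3, and was not called, with a change of 0.09 ± 0.04 with shRNA3 (limma adjusted p = 0.129). Psmc1, the most abundant ATPase, was at 125 and 128 FPKM in WT, 124 and 116 FPKM with shRNA1, and 105 and 105 FPKM with shRNA3. Its change with shRNA3 was -0.27 ± 0.04 (limma adjusted p = 0.00138). The 6 subunits are present in equal numbers in the ring, and their summed FPKM was 92.3% of that of WT with shRNA1 and 78.0% with shRNA3. Over both hairpins the changes of Psmc4, Psmc5 and Psmc2 were -0.51, -0.43 and -0.39 (limma adjusted p = 0.000109, 0.000223 and 0.000531). With the knockdown libraries fitted as 1 group the adjusted p were 0.171, 0.139 and 0.0936.

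**Figure D5:**
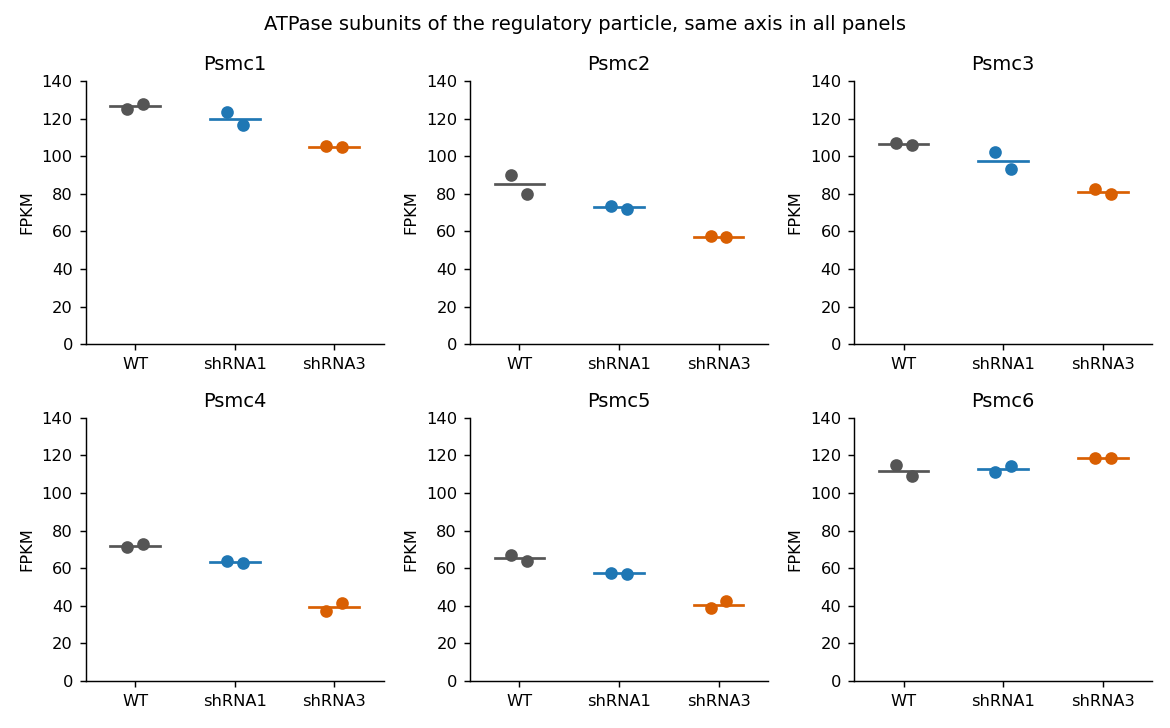
FPKM (y axis, from 0 to the same maximum in every panel) of the 6 ATPase genes in WT, shRNA1 and shRNA3 (x axis). Points are libraries and bars are means of 2; Psmc4 and Psmc5 fall from WT means of 71.9 and 65.3 FPKM to 39.5 and 40.5 FPKM with shRNA3, while Psmc6 does not.

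Of the 11 non-ATPase genes of the regulatory particle, 1 rose and 2 fell with shRNA1, and 1 rose and 8 fell with shRNA3. The 2 falls with shRNA1 were near the 18.4% of all genes called lower. The gene that rose was Psmd8, a subunit of the lid. It was at 87.9 and 89.8 FPKM in WT, 120 and 113 FPKM with shRNA1, and 147 and 138 FPKM with shRNA3, with no overlap. The rise was 0.39 ± 0.05 (SE) with shRNA1, a 1.31-fold higher mean (limma adjusted p = 0.000762), and 0.67 ± 0.05 with shRNA3, a 1.60-fold higher mean (limma adjusted p = 2.63e-05). The hairpins differed by 0.29 ± 0.05 (limma adjusted p = 0.00265).

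Psmd7 and Psmd14, which together form the deubiquitinating pair of the lid, fell with both hairpins. Psmd7 was at 86.8 and 86.6 FPKM in WT, 71.5 and 72.9 FPKM with shRNA1, and 69.3 and 67.0 FPKM with shRNA3, with changes of -0.26 ± 0.04 (limma adjusted p = 0.00233) and -0.34 ± 0.04 (limma adjusted p = 0.000295). Psmd14, the enzyme of the pair, was at 79.4 and 76.6 FPKM in WT, 68.0 and 69.8 FPKM with shRNA1, and 57.8 and 56.6 FPKM with shRNA3. Both genes had every knockdown library below every WT library.

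Psmd1 and Psmd2, the large scaffold subunits of the base, were lower with shRNA3 only. Psmd1 was at 61.6 and 62.4 FPKM in WT, 62.5 and 66.7 FPKM with shRNA1, and 47.4 and 48.5 FPKM with shRNA3, and the hairpins differed by -0.42 ± 0.05 (limma adjusted p = 0.000413). Psmd2, the most abundant non-ATPase gene, was at 226 FPKM in both WT libraries, 224 and 221 FPKM with shRNA1, and 184 and 185 FPKM with shRNA3. Psmd6, a lid subunit and the least abundant, was at 52.6 and 49.5 FPKM in WT, 47.1 and 48.2 FPKM with shRNA1, and 37.2 and 36.4 FPKM with shRNA3, a change of -0.46 ± 0.05 with shRNA3 (limma adjusted p = 0.000151). Psmd4, the ubiquitin receptor, was called in no comparison, with group means between 103.5 and 105.7 FPKM.

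Against WT, the caps that replace or join the regulatory particle did not rise as Psmb8 and Psmb9 did. Of the 4 activator genes, 0 rose and 2 fell with each hairpin, Psme1 and Psme3. Psme1, a subunit of the interferon-inducible cap, was at 177 and 182 FPKM in WT, 153 and 154 FPKM with shRNA1, and 168 and 166 FPKM with shRNA3. All knockdown libraries were below WT, by 0.22 ± 0.04 with shRNA1 (limma adjusted p = 0.00306). The change of -0.10 ± 0.04 with shRNA3 passed narrowly (limma adjusted p = 0.0445) and was lost in 10 of 16 alternative settings. Between the hairpins Psme1 was higher with shRNA3 by 0.12 ± 0.04 (limma adjusted p = 0.0351), a call lost in 8 of 16. Psme2, its partner, was at 167 and 152 FPKM in WT, 151 and 145 FPKM with shRNA1, and 174 and 154 FPKM with shRNA3, and was called in no comparison (limma adjusted p = 0.277 and 0.671 against WT).

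Psme3, the nuclear cap, was at 21.5 and 22.7 FPKM in WT, 19.1 and 17.9 FPKM with shRNA1, and 16.4 and 15.2 FPKM with shRNA3. Its change was -0.24 ± 0.06 with shRNA1 (limma adjusted p = 0.0177), lost without WT replicate 2 (0.0956) or shRNA1 replicate 2 (0.10). With shRNA3 it was -0.46 ± 0.06 (limma adjusted p = 0.000519). Psme4, the large activator made of a lone chain, was at 17.6 and 16.8 FPKM in WT, 16.6 and 17.9 FPKM with shRNA1, and 16.6 and 16.7 FPKM with shRNA3, and was called in no comparison. Psmf1, an inhibitor of the core and the least abundant member, was at 12.7 and 12.6 FPKM in WT, 9.56 and 9.93 FPKM with shRNA1, and 9.08 and 9.22 FPKM with shRNA3. It fell by 0.34 ± 0.06 (limma adjusted p = 0.00316) and 0.42 ± 0.06 (limma adjusted p = 0.000549), and it was the member with the largest fall with shRNA1.

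Chaperones that build the particles moved in both directions. Psmd10, a base chaperone also known as gankyrin, was at 25.4 and 25.9 FPKM in WT, 31.1 and 33.8 FPKM with shRNA1, and 29.4 and 30.1 FPKM with shRNA3. It rose by 0.33 ± 0.05 with shRNA1 (limma adjusted p = 0.00294) and by 0.21 ± 0.05 with shRNA3 (limma adjusted p = 0.0131). Psmd5, the most abundant base chaperone, was at 42.6 and 44.6 FPKM in WT, 41.7 and 42.8 FPKM with shRNA1, and 47.0 and 48.9 FPKM with shRNA3, a rise of 0.13 ± 0.05 with shRNA3 (limma adjusted p = 0.0426). Psmd9, the least abundant, had group means between 13.15 and 13.6 FPKM and was not called.

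The core chaperones Psmg1 to Psmg4 guide the alpha ring. None of the 4 rose against WT, Psmg2 fell with both hairpins, by 0.23 in each, and Psmg3 fell with shRNA3 by 0.47 ± 0.10 (limma adjusted p = 0.00438). Psmg3 was at 17.8 and 14.2 FPKM in WT, 12.7 and 13.5 FPKM with shRNA1, and 11.7 and 10.7 FPKM with shRNA3. Psmg4 was at 29.2 and 35.2 FPKM in WT, 26.9 and 30.2 FPKM with shRNA1, and 40.4 and 34.1 FPKM with shRNA3. The WT libraries overlapped with those of both hairpins, while the hairpins differed by 0.37 ± 0.11 (limma adjusted p = 0.0262), lost in 4 of 16 alternative settings.

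The hairpins were compared directly. With shRNA3, 6 members were higher than with shRNA1 and 22 lower, where 22.0% of all genes were called higher and 20.5% lower. The count of 6 was 2 without shRNA1 replicate 1 and 3 without shRNA3 replicate 1. The share of all genes called in those fits is not given here. By class, 5 of 7 alpha genes, 3 of 7 constitutive beta genes, 5 of 6 ATPases and 7 of 11 non-ATPases were lower with shRNA3. No member was called in opposite directions against WT. Against WT, 6 fell with both hairpins and further with shRNA3, namely Psma4, Psmc2, Psmc4, Psmc5, Psmd14 and Psme3. Another 4, Psmb10, Psmd7, Psmf1 and Psmg2, fell with both and were not called between the hairpins. A set of 14, 13 of them subunits of the core or regulatory particle, was called lower with shRNA3 against WT and against shRNA1, but not with shRNA1 against WT. The 10 genes called in no comparison between groups were Psma5, Psma6, Psmb1, Psmc6, Psmd4, Psmd9, Psmd11, Psme2, Psme4 and Psmg1. The comparisons share libraries, and the share of all genes with each of these patterns is not given here. These pattern counts therefore describe the members without a background.

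Genes around the proteasome were read from lists, whose counts stand beside 17.6% higher and 18.4% lower among all genes with shRNA1, and 27.4% and 27.8% with shRNA3. Of 10 partner genes, 1 rose and 2 fell with shRNA1, and 2 rose and 3 fell with shRNA3. The falls, 20% and 30% of the list, were near those shares. Adrm1, a ubiquitin receptor of the regulatory particle, fell by 0.30 and 0.45 (limma adjusted p = 0.00822 and 0.000600). Pomp, which matures the core, rose by 0.21 with shRNA1 (limma adjusted p = 0.00710) and fell by 0.14 with shRNA3 (limma adjusted p = 0.0207). Of 15 ubiquitin and shuttle genes, 4 rose and 4 fell with shRNA1, and 4 rose and 7 fell with shRNA3. The rises were 26.7% of the list with each hairpin, and the falls 26.7% and 46.7%. Ubb, a polyubiquitin gene, fell by 0.36 and 0.40.

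Of 8 genes for transcription factors of proteasome genes and their activators, 2 rose and 2 fell with each hairpin, 25% in each direction. Nfe2l1, which raises proteasome genes when the proteasome is inhibited, was at 167 and 173 FPKM in WT, 133 and 129 FPKM with shRNA1, and 208 and 204 FPKM with shRNA3. It fell with shRNA1 by 0.38 ± 0.04 (limma adjusted p = 0.000332) and rose with shRNA3 by 0.27 ± 0.04 (limma adjusted p = 0.000817). Nfyc, a subunit of the CCAAT-binding factor, was at 27.1 and 25.6 FPKM in WT, 19.9 and 18.9 FPKM with shRNA1, and 14.0 and 14.1 FPKM with shRNA3, while Nfya and Nfyb were not called. Its fall was 0.42 ± 0.06 (limma adjusted p = 0.000942) and 0.86 ± 0.06 (limma adjusted p = 1.51e-05). Their part in the levels of the members was not tested.

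Of 13 interferon and NF-kB genes, 7 rose and 3 fell with shRNA1, and 7 rose and 1 fell with shRNA3. The rises were 53.8% of the list with each hairpin, against 17.6% and 27.4% of all genes, and the falls 23.1% and 7.69%, against 18.4% and 27.8%. Irf1, which acts on Psmb8, Psmb9 and Psmb10 under interferon, was at 56.2 and 58.8 FPKM in WT, 66.5 and 64.8 FPKM with shRNA1, and 82.5 and 79.2 FPKM with shRNA3. It rose by 0.19 ± 0.05 (limma adjusted p = 0.0147) and 0.49 ± 0.05 (limma adjusted p = 9.15e-05). Irf9, the DNA-binding subunit of the complex that type I interferon activates, fell by 0.62 with shRNA1 (limma adjusted p = 0.000192).

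Of 12 peptide loading genes, 1 rose and 2 fell with shRNA1, and 7 rose and 4 fell with shRNA3. The gene that rose with shRNA1 was Cd74, the invariant chain of MHC class II, which is no class I loading gene. Cd74 rose by 0.65 with shRNA1 (limma adjusted p = 0.00211). With shRNA3 it had the largest rise of the list, 2.04 (limma adjusted p = 4.59e-06). The rises were 8.33% and 58.3% of the list, against 17.6% and 27.4% of all genes, and the falls 16.7% and 33.3%, against 18.4% and 27.8%. H2-D1, an MHC class I heavy chain, was at 429 and 442 FPKM in WT, 470 and 464 FPKM with shRNA1, and 642 and 609 FPKM with shRNA3. Tapbp, the transporter-bound chaperone, rose by 0.71 with shRNA3 (limma adjusted p = 1.99e-05), and Erap1, which trims peptides, fell by 0.47 (limma adjusted p = 0.00208). The list holds Tap1 and Tap2, described above.

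Beside the rise of Psmb8 and Psmb9, the summed level of the 16 leukocyte markers was 6.81 to 7.12 FPKM in WT, 16.2 to 18.9 FPKM with shRNA1 and 27.9 to 28.4 FPKM with shRNA3. Nearly all of it was Cd68, a lysosomal protein and the only marker to pass the filter. Its WT libraries had 6.50 and 6.69 FPKM, against 18.5 and 15.996 FPKM with shRNA1 and 28.1 and 27.5 FPKM with shRNA3. The defining marker Ptprc was at 0 in every library, as were the others listed with it. Of 8 epithelial markers that passed the filter, 5 rose and 1 fell with shRNA1, and 3 rose and 2 fell with shRNA3. Among all genes 17.6% were called higher and 18.4% lower with shRNA1, and 27.4% and 27.8% with shRNA3. With shRNA1 Krt19 rose by 3.05, Epcam by 0.80, Krt7 by 0.48, Cldn3 by 0.32 and Krt18 by 0.17, while Cldn4 fell by 0.54. With shRNA3 Krt19 rose by 2.44, Epcam by 0.46 and Cldn3 by 0.33, while Krt8 fell by 0.69 and Krt18 by 0.14. Of 3 fibroblast and endothelium markers that passed the filter, Pdgfra fell and Col1a1 rose with each hairpin. Pdgfrb was not called against WT with either. Their part in the changes of the members was not tested.

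In the annotation, 12 of the 50 matching symbols had exons that overlap a gene on the opposite strand, Psmb8, Psmb9 and Psme1 among them. For 9, a copy of at least 95% identity over at least 50% of the transcript lay elsewhere in the genome: Psma4, Psma5, Psmb3, Psmb5, Psmc1, Psmd2, Psmd11, Psme2 and Psme2b. Reads of these genes may have been shared with the copies, so their levels are less certain. Psmc4, Psmc5, Psmc2, Psmd8, Psmb9 and Psmb10 had no such copy.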

How the data were processed

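Total RNA of 6 cultures or samples of 4T1 cells was turned into stranded mRNA libraries, per the labels' protocols. For each library the authors deposited a table of symbols and values, without a unit. It was taken as FPKM because Cufflinks 2.2.1 stands in the submitters' processing notes, beside TopHat2 2.0.13, Bowtie2 2.2.3, SAMtools 0.1.19 and mm10. Annotation, strand setting and handling of ambiguous reads: not given in the sources used here. Being scaled to mapped fragments, FPKM of most genes falls when a few abundant genes rise. The depth in reads is unknown.

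Groups came from sample titles. Genes averaging 1 FPKM or more were kept. Limma 3.58.1, run in R 4.3.3 with a trend, fitted a means model of 3 groups to log2(FPKM + 1), with 3 residual and 4.96 prior degrees of freedom. Contrasts were two-sided, with Benjamini-Hochberg adjustment over 11079 genes and a threshold of 0.05. The fit was tested on simulated data. No count test was run, since counts are not what the tables hold. Ratios of catalytic subunits were tested with exact permutation. Positions came from GENCODE mouse release 21 on GRCm38, the assembly of mm10, and promoters from RefSeq. Tables, exact tests and figures used SciPy 1.17.1, NumPy 2.4.6, matplotlib 3.10.9 and pandas 2.3.3 under Python 3.11.15.

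Values in every library are given for the catalytic and activator genes, the 3 largest rises and falls per contrast without overlap, and the highest and lowest member of each class. Other members and list genes with values were picked after their values were seen. A few list genes are counted but not reported here by name. The members and lists were chosen with earlier results of these data known. Alternatives were pseudocounts of 0.1 and 0.5, no filter, a mean of at least 5 FPKM, other scalings, no trend, a replicate block, leaving out each library, fitting only the groups compared, and 1 knockdown group. Leaving out Psmc3ip was added after seeing the data.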

Additional observations from a re-analysis of the deposited data

Results flagged for a closer look

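The change against WT differed between the hairpins in 28 members, by the limma contrast of shRNA3 against shRNA1 (adjusted p under 0.05 over all genes), and each is given as the log2 change with shRNA3 minus that with shRNA1. It was lower with shRNA3 in 22. Among the ATPases the difference was -0.67 for Psmc4, -0.49 for Psmc5, -0.34 for Psmc2, -0.26 for Psmc3 and -0.19 for Psmc1. Among the non-ATPase subunits it was -0.42 for Psmd1, -0.36 for Psmd6, -0.31 for Psmd3, -0.27 for Psmd2, -0.26 for Psmd14, -0.22 for Psmd12 and -0.18 for Psmd13. In the alpha ring it was -0.30 for Psma3, -0.25 for Psma4, -0.23 for Psma7, -0.21 for Psma2 and -0.20 for Psma1. In the constitutive beta ring it was -0.35 for Psmb5, -0.31 for Psmb3 and -0.14 for Psmb7. It was -0.21 for the activator Psme3 and -0.25 for Psmc3ip, which is no subunit.

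The difference was above 0 in 6 members, at 0.64 for Psmb9, 0.37 for Psmg4, 0.29 for Psmd8, 0.18 for Psmb8, 0.18 for Psmd5 and 0.12 for Psme1. In every one of the 28 the libraries of the hairpins did not overlap. With 2 libraries a group that is common among called genes, and its share over all genes is not given here.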

How the results depend on the processing

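Of 56 results on named members, 39 stayed on their side of the threshold in every alternative tried, and 32 of these also kept their sign. Over 896 values under alternatives, 837 stayed on their side, 56 lost the threshold and 3 gained it. The 41 called results kept their sign in every alternative. Of the 15 that were not called, 7 changed sign in at least 1 alternative, in 18 values in all. They were changes close to 0 of Psmb5, Psmb7, Psme2 and Psme4. The rises of Psmb8, Psmb9 and Psmd8 and the fall of Psmb10 with each hairpin, and the falls of Psmc2, Psmc4 and Psmc5 with shRNA3, passed in all of them.

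The count of lower members with shRNA1 was 7 in limma without a trend, against 12. The count of higher members with shRNA3 was 3 after rescaling to the same total, against 5. The count of lower members over both hairpins was 3 with the knockdown libraries as 1 group, against 23, since that fit counts the hairpin difference as spread. Leaving out each library in turn gave 4 to 4 higher and 6 to 11 lower members with shRNA1, 3 to 5 and 20 to 28 with shRNA3, 4 to 4 and 17 to 24 over both hairpins, and 2 to 6 and 15 to 22 for shRNA3 against shRNA1. Where a group was left with 1 library, that library was assumed to vary like the other groups. Apart from the fit with 1 knockdown group, the share of all genes called under these alternatives is not given here. The ratios of catalytic subunits kept their sign without each library.

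The labels number the libraries of each group 1 and 2. Deviations of same-numbered libraries from their group means correlated at 0.0103 for WT with shRNA1 and -0.0719 for WT with shRNA3. For shRNA1 with shRNA3 the correlation was 0.199. With 2 libraries a group these values cannot show whether same-numbered libraries shared a culture or a run. With the replicate block, 4 members were higher and 9 lower with shRNA1, 4 and 26 with shRNA3, 4 and 22 over both, and 5 and 20 between the hairpins.

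The number of fragments behind a value is unknown, so no counting error is given, and 2 libraries a group leave little information on spread. The smaller changes, such as those of Psmb6, Psmb7 and Psme1, depended on the setting.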
